A study of Mus musculus with 6 samples.

Results

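The hormones and blood vessel factors described here were a list of 9 genes of secreted proteins. They were Fgf21, Gdf15, Stc1, Stc2, Vegfa, Vegfb, Vegfc, Angptl4 and Angptl6. Several of them, though not all, are known to be induced by nutrient, endoplasmic reticulum or oxygen stress. Each gene was represented by the array transcript that the platform annotation assigned to it alone, and 8 of the 9 had such a transcript, of 14860 genes in all. Gdf15 had no transcript assigned in the annotation used and was not analysed here. Differentiated 3T3-L1 adipocytes, fat cells grown from a mouse pre-adipocyte line, spent 24 hours in leukemia cell conditioned media (LCM; 3 arrays) or in regular media (control; 3 arrays), each array being labelled a biological replicate. The sample labels give LCM as RPMI1640 with serum, IL-3 and beta-mercaptoethanol in which 8093 cells, a mouse acute lymphoblastic leukemia (ALL) line, had grown, whereas the methods name BV173, a human ALL line. The adipocytes came from 1 cell line in culture. The labels keep them in RPMI1640 with serum and the methods grow 3T3-L1 cells in high-glucose DMEM with serum, and neither says which of these was the regular media of the control arrays. The effects of the base medium, the additives and the leukemia cells cannot be told apart.

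Fibroblast growth factor 21 (FGF21), encoded by Fgf21, is a hormone of liver and fat that binds an FGF receptor together with beta-klotho, and its gene is a known target of the stress factor ATF4. Stanniocalcins, the products of Stc1 and Stc2, are secreted glycoproteins linked to calcium handling, hypoxia and endoplasmic reticulum stress. Vegfa, Vegfb and Vegfc encode vascular endothelial growth factors, which act on receptor tyrosine kinases of blood and lymph vessels, and Angptl4 and Angptl6 encode angiopoietin-like proteins, the first of which inhibits lipoprotein lipase in fat.

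Values are log2 expression after robust multi-array averaging (RMA), so a difference of 1 is a doubling. The arrays came without detection calls. A background band was therefore set from 800 odorant and vomeronasal receptor genes, which fat cells are not known to use. Its upper edge, the 95th percentile of their levels, was 6.68. The array medians over all transcripts were 7.68, 7.678 and 7.665 for LCM and 7.595, 7.658 and 7.62 for controls, so each LCM median was the higher. Control replicate 2 correlated least with the other controls (Pearson r over transcripts 0.980 and 0.984). It was the highest or the lowest of the 3 controls in 81.0% of all genes, against 58.5% for control replicate 1 and 60.5% for control replicate 3. Among the 8 factors, control replicates 2 and 3 were each at an end in 7. All 6 measured adipocyte markers lay above the band on every array. Of these, Adipoq (adiponectin) and Cidec (a lipid droplet protein) fell with LCM, against 1.97% of all genes. Both passed only without control replicate 2 when an array was left out. Plin1, Fabp4 and Pnpla2 were lower without passing on all 6 arrays, and Slc2a4 had a log2 fold change of 0.08 (limma, adjusted p = 0.872). The median level of the 6 adipocyte markers was 11.69 to 11.78 on LCM arrays and 12.09 to 12.24 on control arrays, and the part of this difference in the results below was not tested. All 5 measured pre-adipocyte markers were above it too, and 0 passed the test (1 at an unadjusted p under 0.05, against 19.6% of all genes). Of the 5 measured markers of B-lineage leukemia cells, Pax5 lay at the edge of the band, with 3 of 6 arrays above it and means of 6.67 in LCM and 6.74 in control arrays. Cd79a, Cd79b, Ptprc and Blnk had means inside the band. The median level of the 5 markers was 5.94 to 6.42 on LCM arrays and 5.85 to 6.41 on control arrays. All 6 endothelial markers lay inside the band, and of the 4 macrophage markers only Cd68, a lysosomal protein of many cell types, had a mean over all 6 arrays above it. Cd14 lay at its edge, with 2 arrays above it and means of 6.72 in LCM and 6.65 in control arrays. Cd68 rose by 0.44 (limma, adjusted p = 0.0446) and passed in 2 of the 6 subsets that leave out an array, while Adgre1 and Csf1r were in the band on every array.

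The comparison of LCM with regular media asks whether adipocytes exposed to leukemia cell products changed their expression of these secreted factors. None of the 8 measured factors passed the test (limma, adjusted p under 0.05), against 4.26% of all genes (2.29% rose and 1.97% fell), and 3 of 8 had an unadjusted p under 0.05, against 19.6% of all genes. In the same 3, Angptl4, Angptl6 and Vegfa, the groups did not overlap, as was the case in 27.5% of all genes (12.8% with LCM higher and 14.7% with LCM lower). Angptl6 and Vegfa were higher with LCM and Angptl4 was lower. The median log2 fold change of the 8 factors was -0.04, beside -0.03 over all genes tested. An exact permutation test of 3 against 3 arrays cannot give a two-sided p below 0.1, so the adjusted p-values of limma, which pools the spread over genes, are given throughout.

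**Figure D1:**
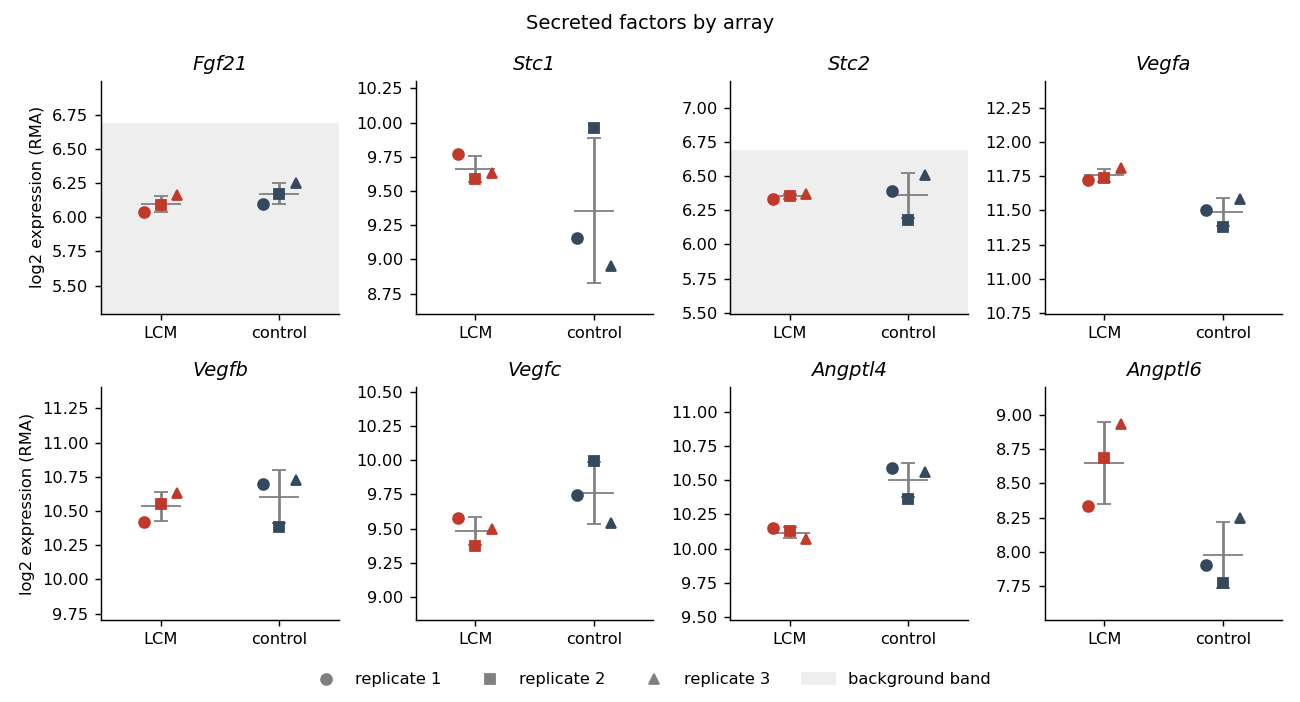
Log2 expression of the 8 measured factors, in a panel each, with LCM arrays on the left (red) and control arrays on the right (blue), a symbol for each replicate number, and the mean with its SD in grey (n = 3). Every panel spans the same log2 range. Fgf21 and Stc2 lie in the grey background band on all 6 arrays, the groups are apart in Vegfa, Angptl4 and Angptl6, and control replicate 2 is high in Stc1.

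Fgf21 was not distinguishable from background in either medium. Its log2 level was 6.04, 6.09 and 6.16 on the LCM arrays and 6.10, 6.17 and 6.25 on the control arrays. All 6 values lay under the edge of the band and the groups overlapped. The log2 fold change was -0.07 with a 95% confidence interval of -0.25 to 0.10 (limma, adjusted p = 0.658), but a gene at background carries little information on its change. ATF4 and its partner CHOP act through composite DNA elements with the core TGATGNAA, so the region before the start of Fgf21 is shown with the letters of the searched motifs in capitals. It covers the 250 bases upstream of the RefSeq start on GRCm38.p6 (chr7:45615491-45615740, minus strand, shown 5′ to 3′ along the gene).
Fgf21 upstream: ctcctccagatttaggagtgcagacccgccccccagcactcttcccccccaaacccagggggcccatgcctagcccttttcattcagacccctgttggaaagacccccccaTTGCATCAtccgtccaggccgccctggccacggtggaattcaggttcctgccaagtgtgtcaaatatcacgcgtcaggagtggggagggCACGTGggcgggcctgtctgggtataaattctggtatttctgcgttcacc
The first capitals, whose match begins at -139 from the start, are TGATGNAA read on the opposite strand. The second hold ACGTG, the core of the hypoxia element, on both strands, overlapping from -50. For comparison, the 5 genes of the ATF4 and CHOP list that held the same 8 letters are shown with 20 bases on either side, those that rose with LCM and those that did not pass alike. They are Atf3, a stress transcription factor (chr1:191183416-191183463, minus strand), Chac1, a glutathione-degrading enzyme (chr2:119351029-119351076, plus strand), Nupr1, a small stress protein (chr7:126625553-126625600, minus strand), Slc7a11, a cystine transporter (chr3:50443633-50443699, minus strand), and Vldlr, a lipoprotein receptor (chr19:27216800-27216847, plus strand).
Atf3 upstream: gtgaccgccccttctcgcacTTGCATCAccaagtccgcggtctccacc
Chac1 upstream: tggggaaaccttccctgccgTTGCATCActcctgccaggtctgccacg
Nupr1 upstream: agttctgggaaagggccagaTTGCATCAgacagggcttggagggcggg
Slc7a11 upstream: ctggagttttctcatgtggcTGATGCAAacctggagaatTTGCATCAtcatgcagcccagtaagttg
Vldlr upstream: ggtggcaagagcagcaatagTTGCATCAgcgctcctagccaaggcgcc
Atf3 and Chac1 each rose by 0.87 (limma, adjusted p = 0.00738 for both). Nupr1, Slc7a11 and Vldlr did not pass, with log2 fold changes of 0.29, 0.27 and 0.08 (adjusted p = 0.0971, 0.254 and 0.568). RefSeq promoter windows (250 bases before to 50 after the start) numbered 18 for 15 genes of the list. TGATGNAA was held by 7 of these windows, each of a different gene, and by 3.97% of all 32851 windows. The list was made of ATF4 and CHOP factors and known targets, so its larger share is not an independent result. Of the 7 genes with a match 3 rose, and of the 8 genes without one 4 rose. A match of letters describes the sequence and does not show that a factor binds there.

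The receptor side of the FGF21 axis was measured above background, and its beta-klotho gene fell. Klb, which encodes beta-klotho, the co-receptor that FGF21 needs, stood at 8.42, 8.43 and 8.30 on the LCM arrays, against 9.05, 9.17 and 8.94 on the control arrays. Each LCM value lay below each control value, the log2 fold change was -0.67 (95% confidence interval -0.87 to -0.47) and the level in LCM was 0.628 of that in controls. Klb passed over all genes (limma, adjusted p = 0.0103). With an array left out, its adjusted p was 0.0101 to 0.0704, and it passed without each control but not without LCM replicate 1, 2 or 3 (0.0552, 0.0589 and 0.0704). For Fgfr1, the main partner of beta-klotho in fat, the log2 fold change was -0.26 (adjusted p = 0.119), and for Fgfr2 it was -0.35 (adjusted p = 0.0532). The groups were apart in both, with LCM lower, as was the case in 14.7% of all genes. Both passed without control replicate 2 (adjusted p = 0.0438 for Fgfr1 and 0.0399 for Fgfr2 from limma), when 8.96% of all genes passed. Fgfr3 and Fgfr4 had log2 fold changes of -0.02 and -0.01. Of the 8 genes in the list of FGF21 receptors and endocrine FGFs, 0 rose and Klb alone fell by limma. Over all genes, 1.97% fell. At an unadjusted p under 0.05, 0 of the list were higher and 3 lower, against 9.25% and 10.3% of all genes. The receptor of GDF15 is formed by GFRAL and RET, and Gfral (4.32 in LCM and 4.38 in control arrays on average) and Ret (6.15 and 6.28) were both inside the background band.

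**Figure D2:**
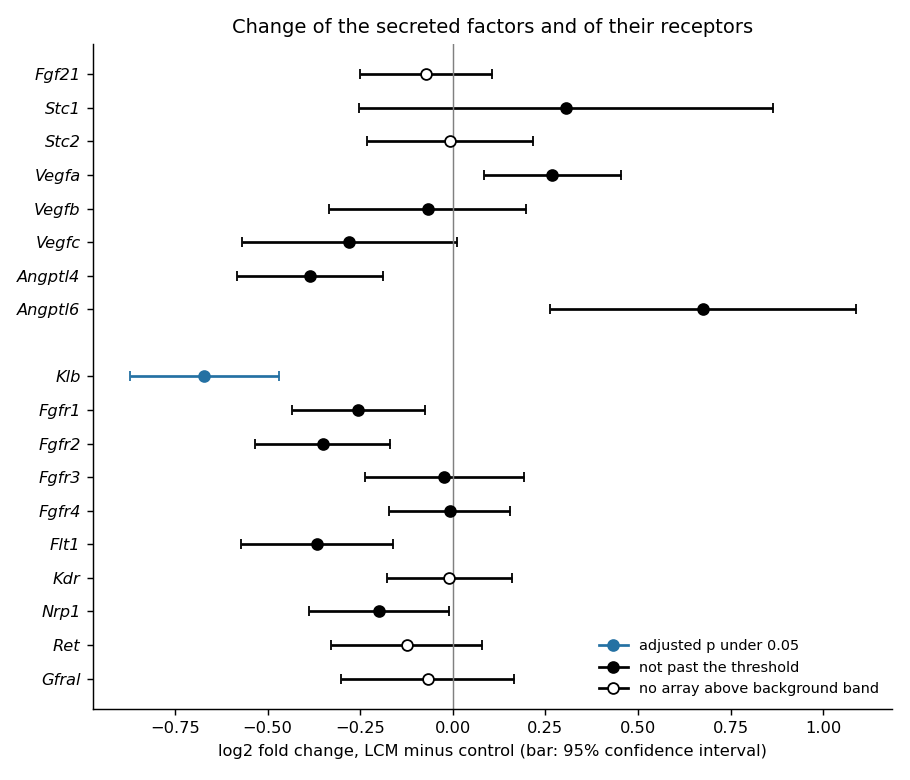
Log2 fold change (LCM minus control) of the 8 factors in the upper block and of the FGF, VEGF and GDF15 receptors and co-receptors in the lower block, with 95% confidence intervals from limma. Klb, in blue, is the gene that passed, at -0.67, and open circles mark genes with no array above the background band.

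The stanniocalcins did not pass in LCM, and Stc1 turned on a single control array. Stc1, whose product is the mammalian relative of a calcium hormone of fish, read 9.77, 9.58 and 9.63 on the LCM arrays, against 9.16, 9.96 and 8.95 on the control arrays. The LCM values lay close together, whereas control replicate 2 was above all of them and the other controls were below. The log2 fold change was 0.31 with an interval of -0.25 to 0.86 (limma, adjusted p = 0.540). Without control replicate 2 it was 0.61 and passed (adjusted p = 0.0172), when 8.96% of all genes passed. Without control replicate 3, the control at the opposite end, it was 0.10 (adjusted p = 0.847). Without control replicate 1 it was 0.21 (adjusted p = 0.763). Whether control replicate 2 or the others are typical of regular media was not tested. Stc2, whose product blocks the protease PAPP-A, lay in the background band on all 6 arrays, at 6.33, 6.35 and 6.37 with LCM and 6.39, 6.18 and 6.51 in controls. Its log2 fold change was -0.01 (interval -0.23 to 0.22, adjusted p = 0.973). Igfbp4 encodes a growth factor binding protein that PAPP-A cleaves. Its log2 fold change was 0.30 (adjusted p = 0.433) and its lowest array was control replicate 2, at 10.99.

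Of Vegfa, Vegfb and Vegfc, Vegfa was the one whose groups did not overlap. Vegfa, which drives blood vessel growth and is a classic hypoxia target, read 11.72, 11.74 and 11.81 on the LCM arrays, against 11.50, 11.38 and 11.58 on the control arrays. Each LCM array was above each control, by a fold of 1.20 on average (interval 1.06 to 1.37; log2 fold change 0.27, SE 0.08). It did not pass over all genes (limma, adjusted p = 0.115), nor in any of the 6 subsets that leave out an array (adjusted p from 0.0971 to 0.336). The transcript stands for the gene as a whole, so its splice forms could not be separated. Vegfb, whose product binds VEGFR1 and is abundant in tissues that burn fat, read 10.42, 10.55 and 10.63 with LCM and 10.70, 10.38 and 10.73 in controls. The groups overlapped and the interval of the log2 fold change was -0.33 to 0.20 (adjusted p = 0.791). Vegfc, the main growth factor of lymph vessels, read 9.58, 9.37 and 9.49 with LCM and 9.75, 9.99 and 9.54 in controls. It overlapped at a single pair of arrays, LCM replicate 1 and control replicate 3, and its log2 fold change was -0.28 (interval -0.57 to 0.01, adjusted p = 0.271). Vegfa was thus higher and Vegfc lower on average, but neither difference passed.

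None of the 5 other measured genes of the VEGF system passed. Flt1, which encodes the VEGFR1 receptor, read 7.62, 7.67 and 7.68 with LCM and 7.92, 8.18 and 7.98 in controls (log2 fold change -0.37, limma, adjusted p = 0.0664). For Nrp1, a co-receptor, the log2 fold change was -0.20 (adjusted p = 0.228). Flt1 passed without control replicate 2 (adjusted p = 0.0392). Kdr, the gene of the main endothelial VEGF receptor, was in the background band at 4.70 with LCM and 4.71 in controls on average. Vegfd, another lymph vessel growth factor and named after its values were seen, averaged 11.09 with LCM and 11.55 in controls (log2 fold change -0.46, adjusted p = 0.0797). The groups did not overlap in Flt1, Nrp1 and Vegfd, all with LCM lower, as was the case in 14.7% of all genes. Of the 5 measured genes 0 were higher and 3 lower at an unadjusted p under 0.05, against 9.25% higher and 10.3% lower over all genes, and the median log2 fold change was -0.20. Flt4 and Nrp2 share their transcripts with other genes and were not analysed here.

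Of the 8 factors, the angiopoietin-like pair came nearest to the threshold, Angptl4 lower and Angptl6 higher with LCM. Angptl4, an inhibitor of lipoprotein lipase that PPAR factors, glucocorticoids and hypoxia are known to induce, read 10.15, 10.13 and 10.07 on the LCM arrays, against 10.59, 10.36 and 10.56 on the control arrays. All LCM values lay below all control values, with a log2 fold change of -0.39 (SE 0.08, interval -0.58 to -0.19) or a level of 0.766 of that in controls. Its adjusted p was 0.0517 from limma and between 0.0134 and 0.205 with an array left out, and it passed only without control replicate 2, whose value was the nearest to the LCM arrays. Angptl6, also known as angiopoietin-related growth factor, read 8.33, 8.69 and 8.93 on the LCM arrays, against 7.91, 7.77 and 8.24 on the control arrays. LCM replicate 1 was only slightly above control replicate 3, so the groups were apart by less than the spread within either. The fold of 1.60 had an interval of 1.20 to 2.13 (log2 fold change 0.68, SE 0.18). It was the largest among the 8 factors with all arrays, but without control replicate 2 the log2 fold change was 0.57 for Angptl6 and 0.61 for Stc1. Angptl6 did not pass (limma, adjusted p = 0.0848), nor in any of the subsets with an array left out (0.0733 to 0.259). The difference between the changes of Angptl4 and Angptl6 was not tested.

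**Figure D3:**
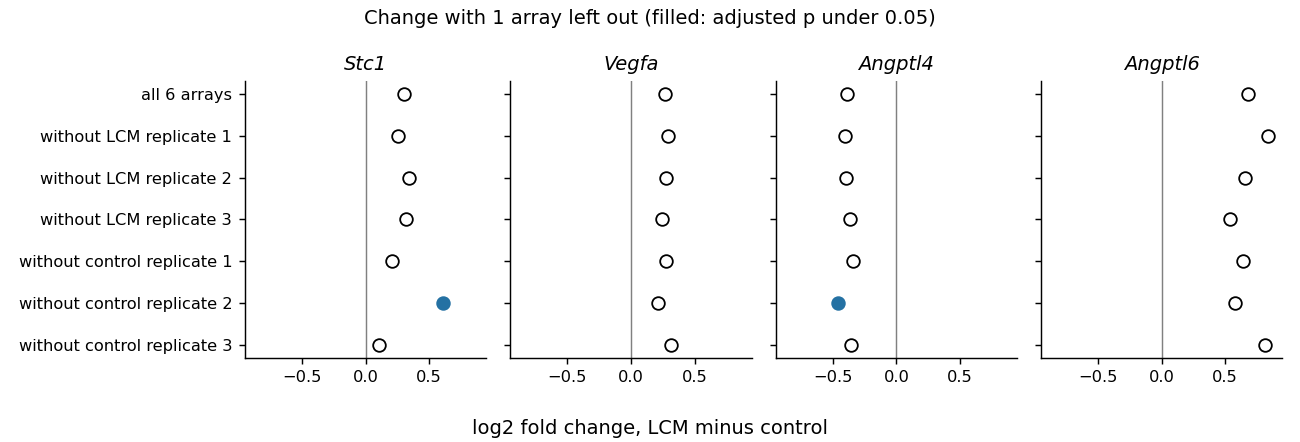
Log2 fold change (LCM minus control) of Stc1, Vegfa, Angptl4 and Angptl6 with all 6 arrays and with each array left out in turn, filled where the adjusted p from limma was under 0.05. The value of Stc1 moves between 0.10 and 0.61 with the control arrays, and Stc1 and Angptl4 are filled only without control replicate 2.

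Among the other angiopoietin-like genes and the partners of lipoprotein lipase, Angptl1 fell and no gene rose (6 of 10 listed genes measured). Over all genes, 1.97% fell. At an unadjusted p under 0.05, 0 of the list were higher and 2 lower, against 9.25% and 10.3% of all genes. Angptl1, which encodes an inhibitor of vessel growth, read 6.33, 6.50 and 6.22 with LCM and 6.97, 7.25 and 6.92 in controls. The LCM arrays were in the background band and the control arrays above it. The log2 fold change was -0.69 (limma, adjusted p = 0.0227), and it passed only without control replicate 2 or 3 when an array was left out. Lpl, the lipase itself, named after its values were seen, averaged 13.27 with LCM and 13.44 in controls (log2 fold change -0.17, adjusted p = 0.204).

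Of 11 measured angiogenic ligands, 0 rose and 2 fell by limma, beside 1.97% of all genes that fell. At an unadjusted p under 0.05, 1 was higher and 6 were lower, against 9.25% and 10.3% of all genes, and the median log2 fold change was -0.20. Fgf1, a growth factor induced in fat by PPAR-gamma, read 6.69, 6.71 and 6.68 with LCM and 7.11, 7.27 and 7.21 in controls. It fell by 0.51 (limma, adjusted p = 0.0145), and its LCM values lay at the edge of the background band. Angpt4, a ligand of the TIE2 receptor, fell by 0.39 (adjusted p = 0.0446). When an array was left out, Fgf1 passed without each control and not without any LCM array, and Angpt4 passed only without control replicate 2. Of 7 secreted inhibitors of vessel growth, none passed by limma. At an unadjusted p under 0.05, 1 inhibitor was higher and 1 lower, against the same 9.25% and 10.3% of all genes. The one with the smallest p was Sparc, a matrix protein, at a log2 fold change of -0.20 (adjusted p = 0.144).

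Genes of the stress arms that are known to induce several of the 9 factors rose with LCM. Of 15 measured genes of the ATF4 and CHOP list, 7 rose and 0 fell by limma, with a median log2 fold change of 0.38, beside 2.29% of all genes that rose. Ddit3, which encodes CHOP, rose by 1.38, Ppp1r15a, which restores translation after stress, by 1.36 and Atf4 by 0.78 on the log2 scale (adjusted p = 0.00378, 0.00378 and 0.00732 from limma). Ddit3, Ppp1r15a, Atf4 and Trib3 were also singled out by the study on these arrays, so their direction is not independent evidence. Leaving out control replicate 1, 2 or 3 gave 6, 8 or 8 genes of the list that rose, and leaving out LCM replicate 1, 2 or 3 gave 6, 6 or 4. Over all 14860 genes, 105, 680 and 182 rose without control replicate 1, 2 and 3, and 66, 46 and 39 without LCM replicate 1, 2 and 3. On the same arrays Fgf21 and Stc2, both known as targets of this arm, were at background on all arrays.

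Of 17 measured genes of the HIF list, 7 rose and Epas1 fell, beside 2.29% of all genes that rose and 1.97% that fell, with a median log2 fold change of 0.42. Ero1a, an oxidase of protein folding, rose by 0.94, P4ha2, a collagen hydroxylase, by 0.94 and Slc2a1, the GLUT1 glucose transporter, by 1.17 on the log2 scale (adjusted p = 0.00762, 0.00973 and 0.0143 from limma). Epas1, which encodes HIF-2 alpha, fell by 0.49 (adjusted p = 0.0305), and for Hif1a the log2 fold change was 0.04. Leaving out control replicate 1, 2 or 3 gave 3, 10 or 5 genes of the list that rose, and leaving out LCM replicate 1, 2 or 3 gave 1, 0 or 0. Over all 14860 genes, 105, 680 (4.58%) and 182 rose without control replicate 1, 2 and 3. Without LCM replicate 1, 2 and 3, 66, 46 and 39 of all genes rose, so calls were lost over all genes too. When an array was left out, Epas1 passed only without control replicate 2. Vegfa, a factor of the same response, was higher by 0.27, below the median of this list, and Angptl4 was lower.

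Of 15 measured genes of PPAR factors and their targets, 0 rose and 2 fell by limma, beside 1.97% of all genes that fell. They were Cd36, a fatty acid transporter, and Cpt1a, the entry enzyme of mitochondrial fat burning, with log2 fold changes of -0.53 and -0.51 (adjusted p = 0.0267 and 0.0289). The median log2 fold change of this list was -0.20. At an unadjusted p under 0.05, 1 gene was higher and 7 lower, against 9.25% and 10.3% of all genes. Cd36 passed only without control replicate 2 when an array was left out, and Cpt1a only without control replicate 2 or 3. Of 9 measured genes in the list of p53 and its targets, Cdkn1a and Trp53inp1 rose and Sesn1 fell. Trp53, which encodes p53, a known inducer of Gdf15, had no transcript assigned to it alone and was not analysed here. Over all genes, 2.29% rose and 1.97% fell. The median log2 fold change of the p53 list was 0.10. Cdkn1a, Trp53inp1 and Sesn1 had log2 fold changes of 0.50, 0.33 and -0.34 (limma, adjusted p = 0.0254, 0.0480 and 0.0447). When an array was left out, each of these 3 genes passed only without control replicate 2.

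**Figure D4:**
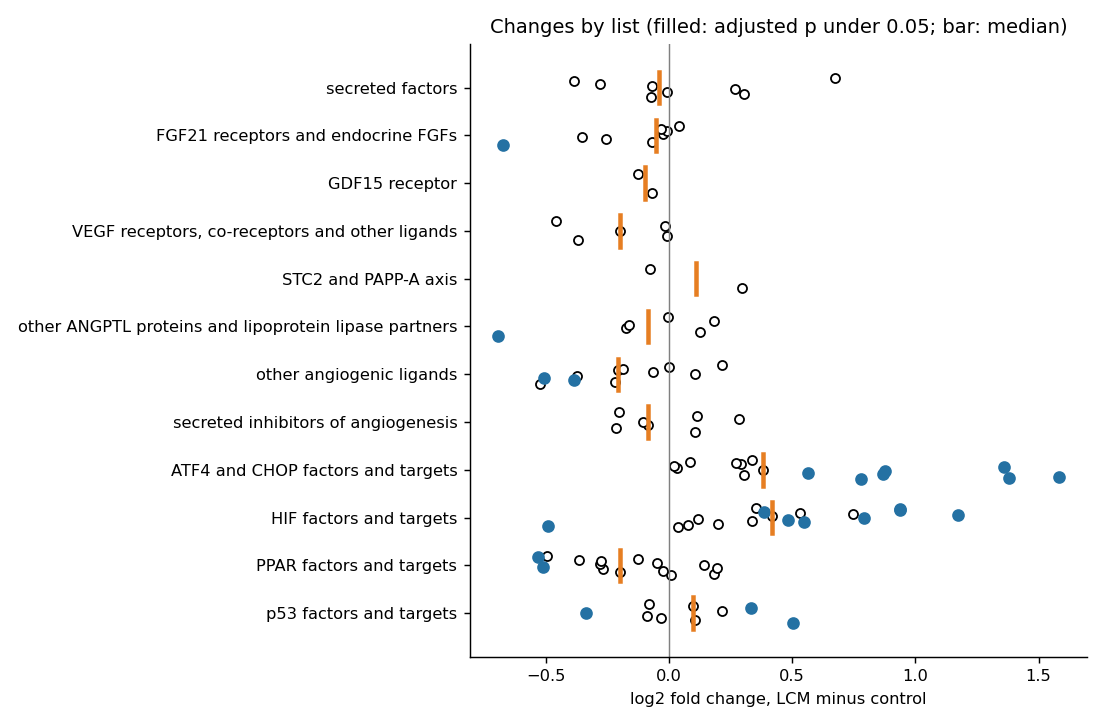
Log2 fold change (LCM minus control) of every measured gene in each list, with the 8 secreted factors on top, filled where the adjusted p from limma was under 0.05 and with the median of the list as an orange bar. The factors spread on both sides of 0 with a median of -0.04, whereas the ATF4 and HIF lists have medians of 0.38 and 0.42.

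RefSeq held 9 promoter windows for 7 of the 9 genes, Stc1 and Angptl4 being those without an entry. Searched on both strands, ACGTG was found in 3 of the 9 windows (Fgf21 and the second window of Vegfa and of Gdf15), and in 19.6% of all windows. TGACNNNGC, an antioxidant response core, was found in 2 (Stc2 and Vegfc), and in 12.4% of all windows. TGATGNAA was found in 1, that of Fgf21. TGACGTCA, the cyclic AMP response element (1.79% of all windows), and the direct repeat of the PPAR response element (0.0396%) were found in none. The windows of Vegfb and Angptl6 and the first windows of Vegfa and Gdf15 held none of the 5 motifs.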

How the data were processed

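Total RNA of 6 cultures was hybridized to Affymetrix GeneChip Mouse Gene ST arrays. The authors deposited log2 expression values made with RMA (named in the submitters' processing notes), with a column for each array and no detection calls; no source used here gives the RMA version, settings or build. Because RMA forces the arrays towards a common distribution, a change in total RNA per culture cannot be seen.

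Of 23332 transcripts, 14996 had a single gene symbol in the platform annotation, 1019 several and 7317 none; 14941 of the single ones matched the RefSeq gene table (GRCm38.p6). Where a gene had several transcripts, the one of highest mean was taken. LCM and control were compared with limma 3.58.1 (lmFit, eBayes, two-sided, no block) in R 4.3.3, with Benjamini-Hochberg adjustment over 14860 genes. No test for the arrays is named in the methods, so the paired t-test of the statistics section was run as an alternative, with an unpaired version. Tables and figures used Python 3.11.15, pandas 2.3.3 and matplotlib 3.10.9. Scripts were tested on simulated data. The small number of arrays limits the precision.

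The members and the 11 lists were chosen with earlier results of these data known. Besides the 9 members, the text names the receptors and, of each list, up to 3 called genes with the smallest adjusted p, or the 1 gene with the smallest p where none was called. Epas1, Hif1a, Atf3, Chac1, Nupr1, Slc7a11, Vldlr, Trib3, Lpl, Vegfd and the marker genes were named outside this rule. The alternatives comprised adjustment over all transcripts, averaged transcripts, dim-gene filters, a further quantile normalization, centring, variance models, array weights, a replicate block and each array left out.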

Additional observations from a re-analysis of the deposited data

How the results depend on the processing

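With all 6 arrays, 0 factors rose and 0 fell by limma (2 higher and 1 lower at an unadjusted p under 0.05). The number that rose was 2 with array weights (Stc1 and Angptl6), 1 among genes above the median level and 1 with the replicate block (Angptl6 in both), and 0 to 1 when an array was left out. The number that fell was 1 (Angptl4) with array weights, with arrays centred on their medians, with arrays centred on the medians of all transcripts, among genes above the background band, among genes above the median level and with a mean-variance trend, and 0 to 1 when an array was left out. The cause of these differences was not tested. The filters adjust over fewer genes and also pool the spread over those genes alone. The adjusted p of Angptl4 was 0.00562 to 0.398 over its 19 alternatives, that of Angptl6 0.0397 to 0.398 and that of Vegfa 0.0518 to 0.365. Direction held in all 19 alternatives for each of the 6 factors above background, and turned in 1 of 17 for Fgf21 and 4 of 17 for Stc2. Adjustment over all transcripts, the filters, the variance models, the replicate block and the t-tests leave the log2 fold change as it was. Direction could not turn in those alternatives, so the counts are no measure of stability. The log2 fold change of Vegfb ranged from -0.18 to -0.006.

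Over all genes, 341 rose and 292 fell, against 120 and 85 over all transcripts, 889 and 975 with array weights, 173 and 151 with the replicate block, and 39 to 680 and 21 to 652 with an array left out (most without control replicate 2). The share of higher genes among those called was 53.9%, and 36.2% of 640 with arrays centred on the medians of all transcripts, a centring added after seeing the data. That centring gave 232 higher and 408 lower genes, centring on the arrays' own medians 374 and 275, and a mean-variance trend 394 and 337. The filters, which test fewer genes, gave 469 and 426 above the background band (9603 genes) and 495 and 396 above the median level. The paired t-test that the methods name for the study as a whole gave 888 higher and 873 lower genes at the unadjusted threshold of 0.05, with 4 of the 8 factors, and called 0 after adjustment. An unpaired version gave 1227 and 1376, with 3 of the 8 factors, and called 104 and 66 after adjustment, none of them a factor. Deviations of same-numbered arrays correlated at -0.234, 0.0552 and 0.112, and those of differently numbered arrays at -0.279 to 0.285. With 3 arrays in a group, these values cannot decide whether the numbers pair the cultures.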

Other observations

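Likeness of pattern was measured as the root mean square difference between gene-centred log2 profiles over the 6 arrays, for the 3 factors whose groups did not overlap, a choice made after seeing the data. Nearest to Angptl4 were Lman2 (0.02), Angpt4 (0.03) and Hpca (0.03). Nearest to Vegfa were Kcmf1 (0.02), Ogt (0.02) and Rad18 (0.02). Nearest to Angptl6 were Cdk18 (0.10), Atp2a3 (0.11) and Maff (0.13). These are descriptions of 6 values for each gene.

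The control arrays spread more than the LCM arrays in 7 of the 8 factors, and in 10686 of all 14860 genes. The range within a group was 0.04 to 0.60 on the log2 scale over the factors with LCM and 0.15 to 1.01 in controls.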
